A study of Mus musculus with 2 samples.

Results

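Transcripts of 10 genes that build the intermediate filament, actin crosslinking and cell adhesion scaffold of smooth muscle were compared in fetal mouse ureters, the muscular tubes that carry urine from the kidney to the bladder. The genes were Des, Vim, Synm, Smtn, Lmod1, Flna, Flnc, Vcl, Tln1 and Tns1. They were taken by the gene name that the array files give each spot, and all 10 of them were on the array, with 18 probes on 27 spots. All 10 passed the filter on dim probes, among 23419 genes measured in all. RNA labelled Tbx2/Tbx3cDKO (cDKO below) was total RNA of ureters from NMRI embryos at E18.5 that were cre/+ at Tbx18, fl/fl at Tbx2 and also fl/fl at Tbx3, both of them T-box transcription factor genes. Control RNA came from ureters of NMRI embryos of the same stage that were +/+ at Tbx18 and carried floxed Tbx2 (fl/?) and Tbx3 (fl/?), with the second allele of each not given. Cre was expressed from Tbx18, a gene of the ureteric mesenchyme, so cDKO embryos differed from the controls also by the Cre allele and the loss of one Tbx18 copy that such an allele can bring. Each of 2 arrays held both RNAs, male RNA with cDKO in red on replicate 1 and female RNA with cDKO in green on replicate 2. Sex and dye orientation therefore cannot be told apart, and the labels do not give the number of embryos behind an RNA. P-values therefore measure only the spread between these 2 arrays. In the main fit that spread was mostly pooled over all tested probes (1 residual and 13.9 prior degrees of freedom). A p-value or interval of that fit thus says little of how closely the arrays agreed for a single gene, which the SD shows.

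Smooth muscle cells hold their contractile filaments in a scaffold. Desmin filaments, joined by synemin, tie dense bodies and the nucleus to the cell surface, while vimentin is the corresponding filament of mesenchymal cells and fibroblasts. Filamins crosslink actin, leiomodin 1 nucleates it and smoothelin binds it in contractile smooth muscle. Talin, vinculin and tensin couple actin to integrins at adhesion sites. Desmin, synemin, smoothelin and leiomodin are known as products of differentiated muscle, whereas filamin A, talin 1 and vimentin are made in many cell types.

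Probes of Des, Vcl and Smtn are shown because each ratio below rests on one short stretch of transcript. Those of Vcl and Smtn are the dimmer ones, while the brighter probe of each stood for the gene in the counts of calls. All are written 5′ to 3′ along the transcript, in lower case, as the array files give them with coordinates on mm9. Des was read by a single probe, printed in repeat spots, at chr1:75363404-75363629 on the plus strand. Vcl had a probe at chr14:21848574-21849035 on the plus strand, from base 3009 of its transcript. Both of these 60-base probes cover longer genomic intervals, 226 bases for Des and 462 bases for Vcl, so they join parts that are apart in the genome. Smtn had a probe at chr11:3420834-3420893 on the minus strand, from base 2891, which differed from the other Smtn probe in its result.
Des: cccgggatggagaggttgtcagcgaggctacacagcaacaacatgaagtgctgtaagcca
Vcl: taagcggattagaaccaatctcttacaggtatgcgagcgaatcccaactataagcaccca
Smtn: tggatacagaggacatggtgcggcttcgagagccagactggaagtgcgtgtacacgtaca

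In cDKO ureters 5 of the 10 genes were lower and 0 were higher (limma, Benjamini-Hochberg adjusted p under 0.05 over the probes that passed the filter). On data simulated with the spread of these arrays, false calls took a larger share of the calls than this threshold allows, so the adjusted p-values given here may be too small. Of all genes measured, 2.27% were called lower and 2.18% higher by the same rule. The lower genes were Synm, Des, Lmod1, Vcl and Flna. By the untested rule of a change of at least 2-fold on both arrays, Des and Synm were lower and 0 members higher, beside 0.726% and 0.410% of all genes. Ratios lay below 0 on both arrays for 6 members, beside 28% of all genes. The median log2 ratio of cDKO over control was -0.64 over the members and 0.0045 over all genes.

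**Figure D1:**
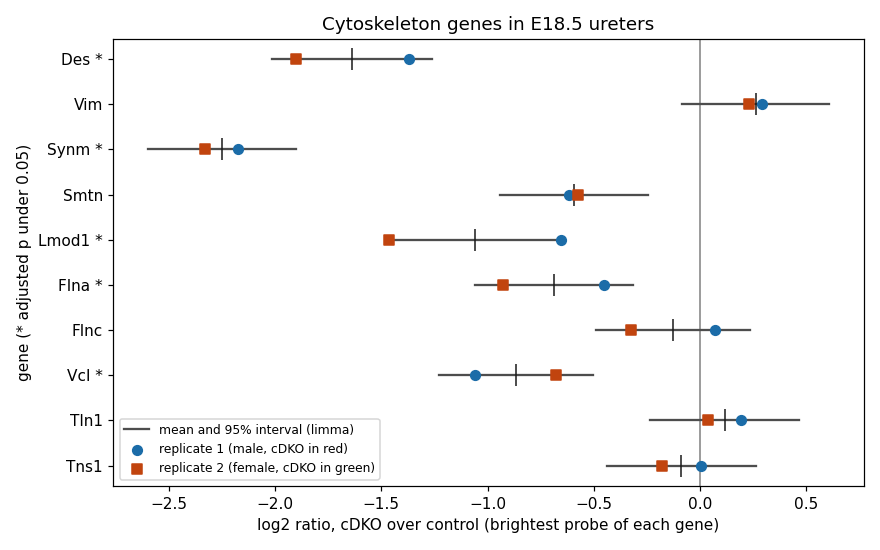
Log2 ratio of cDKO over control (x axis) for the 10 genes, each by its brightest probe, on replicate 1 (circles) and replicate 2 (squares). The vertical tick is the mean and the line its 95% interval from limma; Synm lies lowest at a mean of -2.25 and Vim highest at 0.26, and stars mark the 5 genes with an adjusted p under 0.05.

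The ureter RNA itself was checked against markers of smooth muscle and of the other cells that a dissected ureter can hold. Smooth muscle markers were well above background in all RNAs, and 7 of 7 were lower in cDKO, with log2 ratios of -2.75 ± 0.037 for Tagln, -2.73 for Actg2, -2.65 for Acta2, -2.64 for Myh11, -2.19 for Cnn1, -1.92 for Mylk and -1.53 for Myocd (SD, n = 2). The summed normalised intensity of these markers was 254080 and 186625 in male and female cDKO RNA, against 1449610 and 1161260 in the controls. Fibroblast markers were higher for 6 of 6 genes, summing to 1158820 and 1267530 in cDKO and to 545971 and 656832 in control RNA, with log2 ratios between 0.67 for Pdgfra and 1.27 for Col1a1. With the processed signals neither Col1a1 (adjusted p = 0.156) nor Pdgfra (0.322) was called, and with robust eBayes Col1a1 was not called either (0.154). In whole tissue, fewer cells of a type and less RNA per cell cannot be told apart, and this holds for every gene below. The floxed genes were not lower in cDKO: Tbx2 had a log2 ratio of 0.74 ± 0.42 and Tbx3 of 0.66 ± 0.16 (SD, n = 2; limma adjusted p of 0.0273 and 0.0305). Tbx18, the gene that carries Cre in cDKO, was at 0.81 ± 0.0031 (SD, n = 2; limma adjusted p of 0.00778). Under the 11 settings compared below, Tbx2 was called in 6, Tbx3 in 7 and Tbx18 in 8. The labels do not say which exons of Tbx2 and Tbx3 are lost, so a probe outside them checks nothing, and all directions are those of the RNA labelled cDKO.

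Desmin, the intermediate filament of muscle, was 3.11-fold lower in cDKO ureters. Its normalised intensity, the background-corrected and loess-normalised spot brightness, was 1927 and 1699 in cDKO RNA (male and female), against 4988 and 6358 in control RNA. Both cDKO values lay below both control values. Here and below, such comparisons across arrays are descriptive, since intensities were normalised only within each array. The log2 ratio was -1.37 for male and -1.90 for female RNA, with a mean of -1.64 ± 0.38 (SD, n = 2; adjusted p = 2.57e-05). The probe of Des was printed on 10 spots of each array, which gives the technical error within an array. These spots ranged between -1.53 and -1.28 on the male array (SD 0.076) and between -1.97 and -1.84 on the female array (SD 0.043). The ranges of the arrays, which hold different RNAs with the dyes swapped, did not overlap.

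Synemin, an intermediate filament protein that assembles with desmin and vimentin, had the lowest ratio of the members. At its brightest probe Synm had normalised intensities of 487.1 and 458.4 in male and female cDKO RNA, against 2198 and 2303 in control RNA. The cDKO values were thus far below the controls, and the log2 ratios of -2.17 and -2.33 nearly coincided. The mean was -2.25 ± 0.11 (SD, n = 2), which is 4.76-fold lower (adjusted p = 3.14e-07). Synm had 5 probes, of which 4 were measured, and all 4 were called lower. From base 5224, 6653 and 7488 of the transcript they gave mean log2 ratios of -2.25, -2.46 and -2.32. The dim probe from base 5747 gave -1.34 ± 0.076 (SD, n = 2; adjusted p = 9.47e-05), with intensities of 223.1 and 138.8 in cDKO against 543.9 and 364.4 in control RNA. Its processed signals fell to 23.3 and 15.9 in cDKO, against 146.3 and 79.5 in controls, and an offset of 50 added to every intensity draws ratios of so dim a probe towards 0. The fifth probe, drawn from another transcript record, from base 815, was not well above background in any RNA.

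Vimentin, the filament of mesenchymal cells, was not called. Vim had normalised intensities of 134312 and 141076 in cDKO RNA, against 109659 and 120274 in control RNA. The cDKO values were the higher on both arrays, but by little. The log2 ratio was 0.26 ± 0.044 (SD, n = 2) with a 95% interval of -0.09 to 0.61, and it was not called (adjusted p = 0.494). Without loess, under median centring, Vim was at 1.03 for male and -0.48 for female RNA. Its sign on the female array thus depended on that correction. With loess the ratio of Des was lower than that of Vim within each array, and the intervals of both (-2.01 to -1.26 for Des) did not overlap. The difference between these genes was not tested itself.

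**Figure D2:**
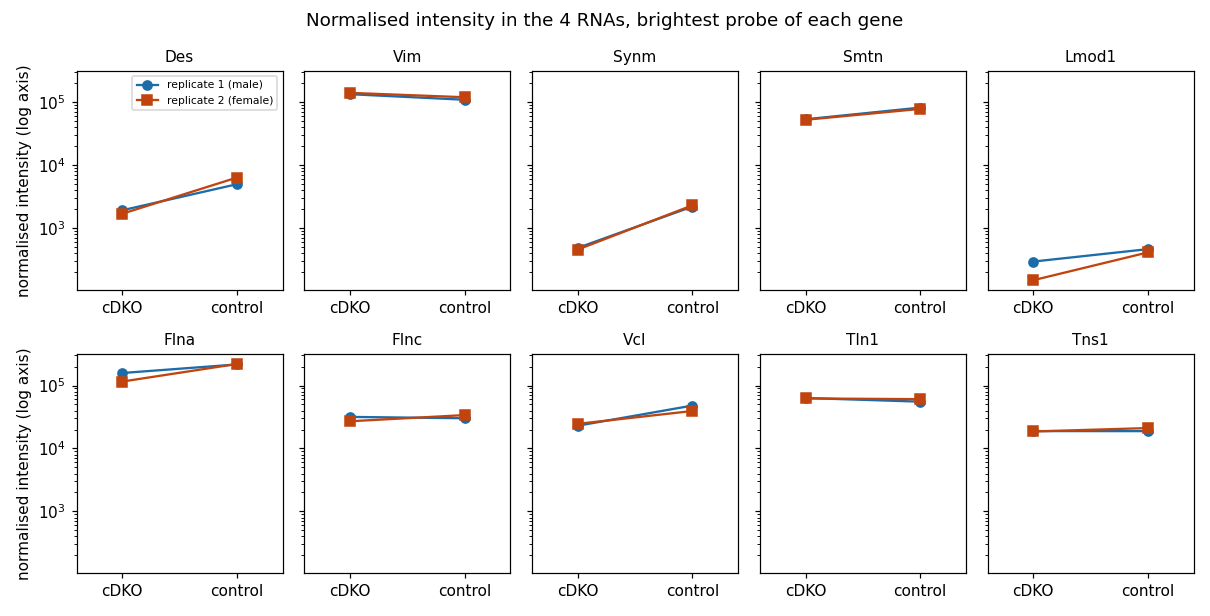
Normalised intensity (log axis) of the brightest probe of each gene in cDKO and in control RNA, joined within the male (circles) and female (squares) array. Lines climb from cDKO to control for Des, Synm, Lmod1, Flna, Vcl and Smtn on both arrays, and levels are not comparable between genes, since each probe has its own brightness.

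Among the actin-associated proteins, leiomodin 1, a nucleator of actin filaments in smooth muscle, was lower, at a low signal. Lmod1 had normalised intensities of 295 and 149.2 in male and female cDKO RNA, against 464.4 and 411.8 in control RNA. Both cDKO values were below both control values, by 1 unit of log2 on average. The log2 ratios of -0.65 (male) and -1.46 (female) differed by 0.81, the widest gap between arrays among the brightest probes. Their mean was -1.06 ± 0.57 (SD, n = 2), which is 2.08-fold lower (adjusted p = 0.00366). With the processed signals, which carry no offset, the ratio was -1.84, but the call was lost (adjusted p = 0.0587).

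Smoothelin, an actin-binding protein known from contractile smooth muscle, gave results that depended on the probe. At the brightest probe, from base 3322 at chr11:3417530-3417589 on the minus strand, Smtn had 53713 and 52695 in cDKO RNA, against 82273 and 78406 in control RNA. The arrays gave nearly the same log2 ratio, -0.62 and -0.57, and both cDKO values were below both control values. The mean of -0.59 ± 0.030 (SD, n = 2; 95% interval -0.94 to -0.25) missed the threshold narrowly (adjusted p = 0.0535). Without loess, under median centring, this probe was at 0.04 for male and -1.05 for female RNA. Its sign on the male array and the match of the arrays thus depended on that correction. The probe from base 2891, shown above, had 12854 and 11496 in cDKO RNA against 9008 and 11134 in control RNA. There the cDKO value was the higher on each array, by little on the female one, with log2 ratios of 0.51 and 0.05 (mean 0.28 ± 0.33, SD, n = 2; adjusted p = 0.491). The probes were designed on different transcript records of Smtn, so their base numbers do not share an origin. The 95% interval of that probe, -0.09 to 0.65, did not overlap that of the brightest probe, and the cause of the gap was not tested. The mean of both probes was -0.16. Smtn was called lower at its brightest probe where only probes above background in both channels were tested (adjusted p = 0.0359), with an intensity trend (0.0054) and with robust eBayes (0.0343), and was not called in the other alternatives with a test (highest adjusted p 0.99998).

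Of the filamins, Flna was called lower and Flnc was not called. Filamin A, the actin crosslinker of most cells, had normalised intensities of 158093 and 115680 in cDKO RNA, against 216145 and 219841 in control RNA. Both cDKO values of Flna were below both control values. The log2 ratio was -0.45 for male and -0.93 for female RNA, with a mean of -0.69 ± 0.34 (SD, n = 2), which is 1.61-fold lower (adjusted p = 0.0338). The call was lost with the processed signals (adjusted p = 0.246), with offset 0 (0.064), without a filter (0.0654), under median centring (0.847) and in the deposited value table (0.42). Without loess, under median centring, Flna was at 0.34 for male and -1.71 for female RNA, so its sign on the male array depended on that correction. Filamin C, the form enriched in striated muscle, had 31732 and 27068 in cDKO against 30215 and 33919 in control RNA. These values overlapped between the genotypes, and the log2 ratio of Flnc was 0.07 for male and -0.33 for female RNA (mean -0.13, 95% interval -0.49 to 0.24; adjusted p = 0.827). Each filamin had a single probe. Within each array the ratio of Flna was lower than that of Flnc, while the intervals of Flna (-1.06 to -0.32) and Flnc overlapped. The difference between the filamins was not tested itself.

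Vinculin, which links talin and actin at adhesion sites and dense plaques, was lower at both of its probes. At the brightest, from base 4438, Vcl had 23003 and 24632 in cDKO RNA, against 47966 and 39367 in control RNA. The genotypes did not overlap, and the log2 ratio of -0.87 ± 0.27 (SD, n = 2) corresponds to 1.83-fold less (adjusted p = 0.00628). The probe shown above, from base 3009, had 5174 and 4400 in cDKO against 8562 and 8010 in control RNA. Its log2 ratio of -0.80 ± 0.097 (SD, n = 2; adjusted p = 0.00897) lay within the spread of the first probe. With the processed signals both probes kept their sizes (-0.88 and -0.78) but not their calls (adjusted p of 0.136 and 0.16). Under median centring the brightest probe was at -0.71 and lost its call as well (adjusted p = 0.77).

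Talin 1 and tensin 1, the partners of vinculin at integrin adhesions, showed no call. Tln1, which binds integrin tails, had 63334 and 62369 in cDKO RNA, against 55439 and 60740 in control RNA at the brightest probe (log2 ratio 0.12 ± 0.11, SD, n = 2; 95% interval -0.23 to 0.46; adjusted p = 0.841). Its dim probe, from base 3939, was at 0.48 for male and -0.25 for female RNA. Tns1, which binds actin and integrin tails, had 18877 and 18624 in cDKO against 18856 and 21096 in control RNA (log2 ratio -0.09 ± 0.13, SD, n = 2; interval -0.44 to 0.26; adjusted p = 0.891). Its probe from base 7171 gave -0.26 (interval -0.62 to 0.09; adjusted p = 0.507). At the brightest probes the intervals of Vcl (-1.23 to -0.51) and Tln1 did not overlap, and those of Vcl and Tns1 did not overlap either, while the differences between the genes were not tested themselves.

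**Figure D3:**
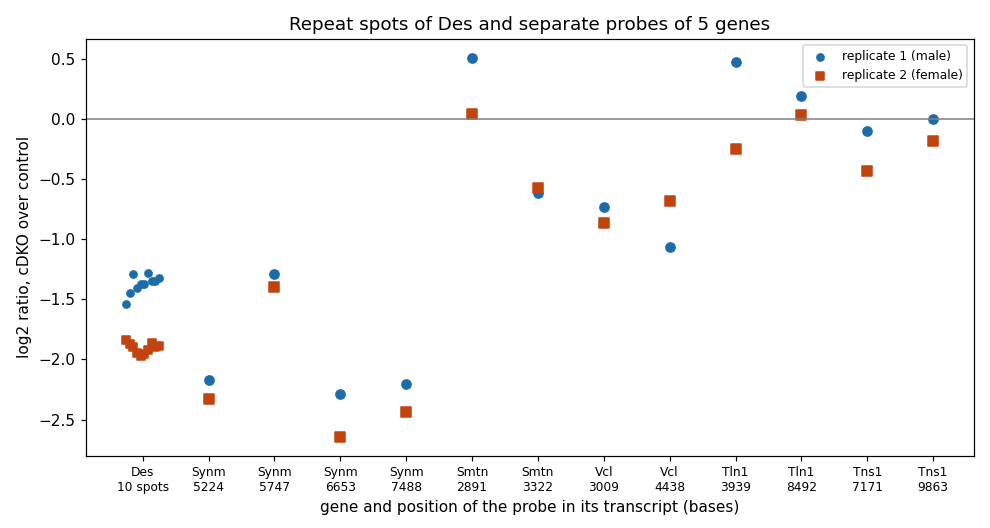
Log2 ratio of cDKO over control (y axis) on the male (circles) and female (squares) array for the 10 repeat spots of the Des probe and for each measured probe of the 5 genes with several probes, named by the base of the transcript where the probe begins. The probes of Synm and of Vcl lie below 0 throughout, whereas the Smtn probe at 2891 lies above 0 and that at 3322 below.

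Further genes of the same structures were read from lists. Of 15 further intermediate filament genes and linkers, all measured, 1 was called lower and 0 higher, with a median log2 ratio of 0.11. The called gene was Nefl, the neurofilament light chain, at -0.67 ± 0.35 (SD, n = 2; adjusted p = 0.0423). Lmnb1, a nuclear lamin, was at 0.62 and Lmna, another lamin, at 0.55, both without a call (adjusted p of 0.0599 and 0.108). Plec, which encodes plectin, a linker of intermediate filaments, was at 0.33, and Sync, a binding partner of desmin, at -0.21 (adjusted p of 0.356 and 0.652).

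Of 11 listed filamin family members and partners, 8 were measured, with 3 lower, 0 higher and a median of -0.17. Ldb3, a protein of Z-discs, was at -2.97 ± 0.12 (SD, n = 2; adjusted p = 2.11e-08), Filip1, a filamin-interacting protein, at -0.68 and its relative Filip1l at -0.80. With the mean of its probes Ldb3 was at -1.85 and stayed called, so the size of its ratio depended on the probe. Among 8 leiomodin, tropomodulin and smoothelin relatives, 7 were measured and 1 was lower, Tmod1, which caps the pointed ends of actin filaments, at -2.57 ± 0.28 (SD, n = 2; adjusted p = 1.34e-07). Lmod2, the leiomodin of striated muscle, was not well above background in any RNA, and Lmod3 was at -0.04.

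All 31 focal adhesion adaptors were measured, of which 5 were lower and 2 higher, with a median of 0.075. The lower ones included Fermt2, the integrin activator kindlin-2, at -0.87 ± 0.46 (SD, n = 2; adjusted p = 0.0107). Among them were also Lpp, a zyxin relative of smooth muscle, at -0.79 and Csrp1, a LIM protein of smooth muscle, at -0.73. Lims1, a partner of Ilk, was another, at -0.77 ± 0.55 (SD, n = 2), with -1.16 for male and -0.38 for female RNA. The higher ones were Fermt1, the kindlin of epithelia, at 0.76 and Tns3, a relative of Tns1, at 0.70. Paxillin (Pxn, 0.33), zyxin (Zyx, 0.21) and Ilk (-0.05) were not called. Tns2, another tensin, was at 0.52 without a call (adjusted p = 0.0991). The calls of Ldb3 and Tmod1 held in 10 of the 11 settings with a test, all but the deposited value table. Those of Nefl, Filip1, Filip1l, Fermt2, Lpp, Lims1, Csrp1, Fermt1 and Tns3 were lost there, under median centring and with the processed signals. Nefl, Filip1 and Lims1 also lost theirs with offset 0 and without a filter, which left them called in 6 settings.

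**Figure D4:**
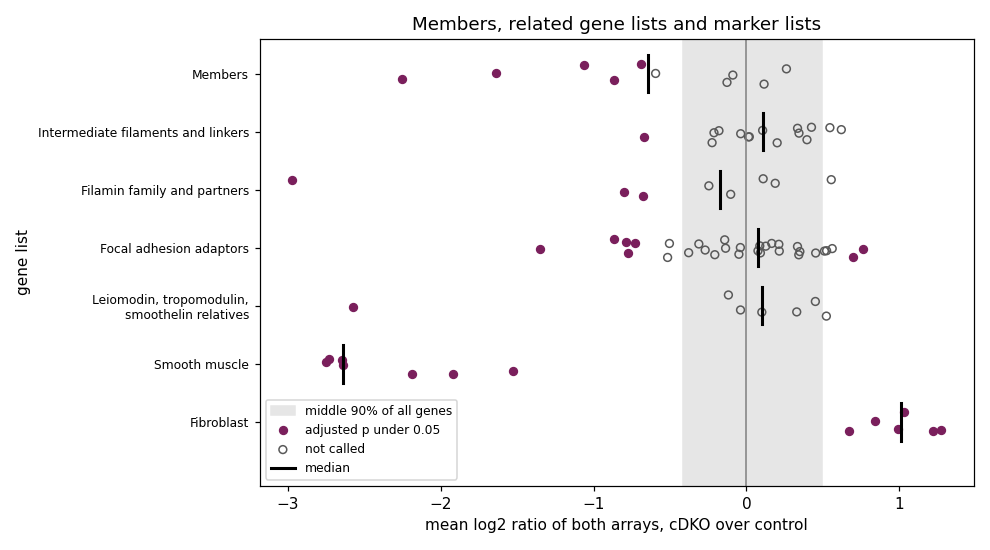
Mean log2 ratio of cDKO over control (x axis) for the 10 members, the related gene lists and the smooth muscle and fibroblast markers, 1 point per gene. Filled points have an adjusted p under 0.05, black bars are medians (-0.64 for the members, -2.64 for the smooth muscle markers, 1.01 for the fibroblast markers), and the grey band spans percentiles 5 to 95 of all genes, -0.41 to 0.50.

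Several members are also made in cells other than ureteric smooth muscle, so the markers of those cells are set beside them. Of 8 skeletal muscle markers, 6 were measured and 3 were lower, with Acta1 at -2.65 the lowest and Myh3 at 0.41 the highest. The summed intensity of all 8 was 9232 and 8566 in cDKO and 36453 and 40775 in control RNA. Acta1 alone gave 5246 and 5032 in cDKO and 29993 and 34601 in control RNA. Sums in this paragraph take in every listed gene, also those not measured. Of the muscle transcription factors listed, Myog and Pax7 were not well above background in any RNA. Myf6 (0.21) was above background in 4 RNAs and Myod1 (0.01) in 3, both at a low signal and without a call. Cardiac muscle markers had 0 of 5 called, with Ryr2 at 0.08 and Myl7 at -0.96 ± 1.42 (SD, n = 2), and their summed intensity was 2154 and 1552 in cDKO and 2313 and 2850 in control RNA. Myl7 was at 0.05 in male and -1.96 in female RNA, and was called lower with the filter on both channels (adjusted p = 0.029) and with an intensity trend (0.0131). Endothelial markers, of cells that also make vimentin, had 2 of 5 higher, with Plvap at 0.97 the highest and Tek at 0.07 the lowest, and summed to 86642 and 76158 in cDKO and 61403 and 57811 in control RNA. Plvap was at 0.52 with the mean of its probes and lost its call there (adjusted p = 0.0819), as with the processed signals (0.131) and the deposited value table (0.38). Urothelial markers had 0 of 6 called, between 0.58 for Krt5 and -0.32 for Trp63. They summed to 615243 and 587485 in cDKO and 486335 and 566259 in control RNA. Krt5 (adjusted p = 0.0624) was called higher with the filter on both channels (0.0425), with an intensity trend (0.00703) and with robust eBayes (0.0406). Of 5 nephron markers 4 were measured, and all 4 were higher, between 1.56 for Pax8 and 2.45 ± 1.52 for Cdh16 (SD, n = 2), and summed to 16376 and 9752 in cDKO and 3227 and 3962 in control RNA. Cdh16 was at 3.52 in male and 1.37 in female RNA, and its call was lost with robust eBayes (adjusted p = 0.614), the processed signals (0.149) and the deposited value table (0.471). Of 4 Schwann cell markers 3 were measured and 0 called (0.31 for Sox10), with sums of 20155 and 18578 in cDKO and 18760 and 18495 in control RNA. Leukocyte markers had 0 of 4 called (-0.07 for Ptprc, -0.27 for Cd68), with sums of 38080 and 34940 in cDKO and 37758 and 39715 in control RNA. How far the shifts in skeletal muscle, fibroblast, endothelial and nephron markers bear on the ratios of the members was not tested.

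The promoters of the members were read for the CArG box, the site bound by serum response factor, which with myocardin drives many smooth muscle genes, since Myocd, the myocardin gene, was lower as well. RefSeq windows of 250 bases before to 50 bases after the annotated start (GRCm38.p6) were found for all 10 genes, in 11 windows. A CArG box, read on both strands, lay in 1 of them, that of Vcl, and in 1.63% of all 32851 windows. It stood at positions -227 to -218 from the start of Vcl and is in capitals in the stretch at chr14:20929148-20929267 on the plus strand, which covers positions -250 to -131.
Vcl promoter: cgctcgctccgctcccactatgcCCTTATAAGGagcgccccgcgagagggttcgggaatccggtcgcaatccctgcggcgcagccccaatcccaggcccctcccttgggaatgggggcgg
The core of the T-box site, GGTGTGA on either strand, lay in 0 of the 11 windows and in 3.98% of all windows. A match describes these letters only, and windows without one say nothing of sites elsewhere.

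The 5 called genes were lower under every setting tried, while the number called varied. Filters, an intensity trend, robust eBayes and Aquantile leave the ratio of a probe unchanged, so they could not alter its direction. Under the 11 settings with a test, Des and Synm were called in 10, Lmod1 and Vcl in 8, Flna in 6 and Smtn in 3, while Vim, Flnc, Tln1 and Tns1 were called in 0. These 11 include the main setting and Aquantile, which adjusts brightness only and repeated the main calls of the members by construction. Over all settings and each array alone, the log2 ratio of Des lay between -1.90 and -1.37, and that of Synm between -2.59 and -2.09. That of Lmod1 lay between -1.84 (processed signals) and -0.65 (male array alone), and was -1.32 with offset 0.

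**Figure D5:**
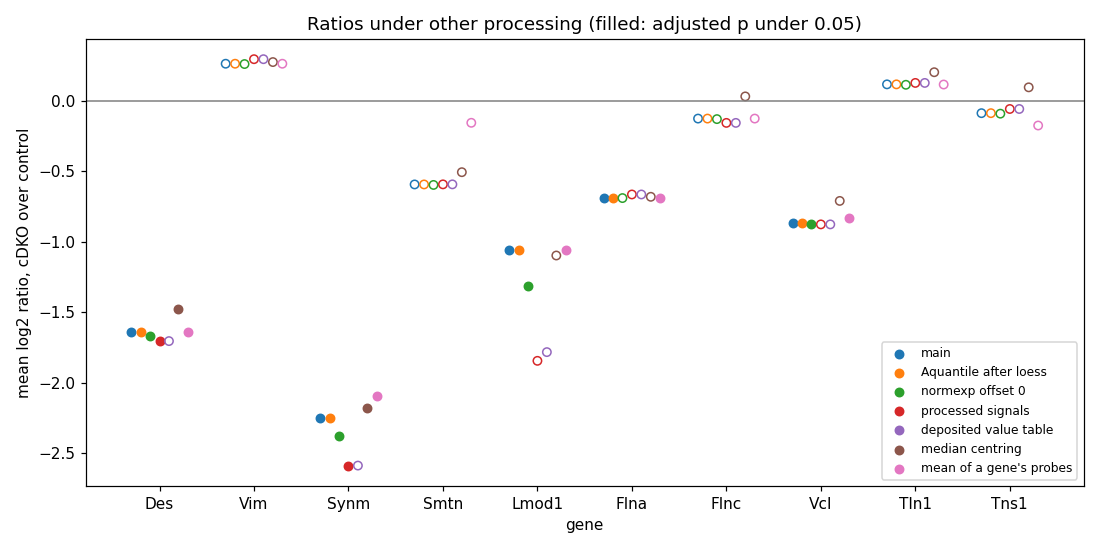
Mean log2 ratio of cDKO over control (y axis) of the 10 genes under the main setting and 6 alternatives, in colours; filled points have an adjusted p under 0.05. The lower genes stay below 0 in each, and Flnc and Tns1 lie above 0 under median centring alone. Points under Aquantile repeat the main setting by construction.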

How the data were processed

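Total RNA of both genotypes was hybridised to 2 Agilent 2-colour arrays on one slide. Per the file headers, the authors quantified spots with Agilent Feature Extraction 10.7.3.1, which gave mean spot intensity and median background intensity per channel, a processed signal intensity (background-subtracted and dye-normalized), the log10 ratio of red over green, and other flags per spot. The deposited value table is a score that equalled the signed fold between the processed signals, cDKO over control, with values raised to at least 26.9 (male) or 20.4 (female), within 0.001 log2 for 100% of values. Between 72.1% and 81.6% of gene spots per channel were well above background, and no spot of the members was saturated. Precision is limited by the number of arrays.

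Intensities were corrected with normexp (offset 50) and loess in limma 3.58.1 (R 4.3.3). Spots marked as outliers (272 and 226) were left out, spots of a probe averaged, and probes kept if well above background in one genotype on both arrays (29274 of 39429). The brightest kept probe stood for a gene. The mean log2 ratio was tested against 0 with lmFit and eBayes (1 residual and 13.9 prior degrees of freedom, Benjamini-Hochberg over the kept probes, threshold 0.05). The fit was tested on simulated data in which changed probes differed by at least 2-fold. It recovered nearly all of these probes but made more false calls than the threshold allows. Smaller changes, such as those of Flna, Vcl and Smtn, were not simulated, so their recovery is not known. The prior degrees of freedom came out higher in the simulations than those simulated. Alternatives were processed signals, offset 0, median centring, Aquantile, other filters, the deposited value table, probe means, an intensity trend, robust eBayes, other thresholds and each array alone. Named were all members with every probe, called genes of the related lists (others named there were chosen after their values were seen), the smooth muscle markers, and the extremes of other marker lists. Members, lists and tests were chosen with earlier results of these data known. Symbols came from RefSeq accessions (GRCm38.p6, 26412 probes) or the file (13017); exon or UTR positions on mm9 are not used here. Single genes of these lists that the rule would name are in part not reported here.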

Additional observations from a re-analysis of the deposited data

Results flagged for a closer look

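At 3 probes of the members the male and the female array lay on opposite sides of 0, which flagged them for a closer look. The difference was not tested, each sex is 1 array, and sex cannot be told apart from dye orientation. The Flnc probe had a log2 ratio of cDKO over control of 0.071 for male and -0.326 for female RNA. The dim Tln1 probe from base 3939 was at 0.475 and -0.250. The Tns1 probe from base 9863 was at 0.0017 and -0.180.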

How the results depend on the processing

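Against 5 members called lower in the main setting, median centring gave 2, the processed signals 2 and the 2-fold rule 2 (Des and Synm each time), and in the deposited value table limma called 0 (6 members had an unadjusted p under 0.05). Over all genes, 531 lower and 511 higher became 157 and 163 under median centring, 210 and 134 with the processed signals, 0 and 0 in the deposited value table by limma (2434 with an unadjusted p under 0.05), and 326 and 264 at an adjusted p under 0.01. An intensity trend gave 663 lower and 936 higher, and the higher share of the calls was 58.5% there and 39.0% with the processed signals, against 49.0% in the main setting. The members' median of -0.64 was -0.43 with the mean of a gene's probes and lay between -0.62 and -0.53 with 1 array left out. Under median centring Flnc was at 0.030 and Tns1 at 0.094, above 0. The median over all genes was -0.00044 with the filter on both channels and -0.0020 in the deposited value table. The focal adhesion median was -0.020 with the mean of a gene's probes and lay between -0.036 and 0.11 with 1 array left out. The cause of these changes was not tested, except that a stricter threshold calls fewer genes by construction. Of the members' values under alternatives with a test, 82 kept direction and side of the threshold, 13 lost the call, 3 gained it and 2 changed sign. The values under Aquantile are among those 82, and they could not have differed from the main setting. With the male array alone, Flnc (0.071) and Tns1 (0.0017) were above 0. Counts of calls with 1 array left out could not be made, since 1 array leaves no residual degrees of freedom. No paired analysis was possible because each array holds both genotypes and its ratio already pairs them.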
